A study of Mus musculus with 12 samples.

Results

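The cell cycle and DNA replication genes examined here are 41 genes whose products license and copy DNA, supply its nucleotides, control entry into S phase, or carry out mitosis. They were taken by name: a gene probe of the array belonged to the set when its gene name was 1 of the 41, and 52 of the 55681 gene probes did. By role, 21 were classed as replication genes (11 for licensing and the fork, 4 for nucleotide supply, 6 for S phase entry and control) and 20 as mitosis genes. A gene counted as measured when the scanner marked 1 of its probes as clearly brighter than background on 6 or more of the 12 arrays, which held for 30 of the 41 (17 replication and 13 mitosis genes), among 16853 measured genes in all.

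The study compared the descending aorta of male C57BL/6 mice aged 20 months (n = 6) with that of male C57BL/6 mice aged 6 months (n = 6), without a further treatment named for either age. The vessel was flushed with cold saline, freed of the surrounding fat and connective tissue, and frozen. Total RNA of each mouse was labelled with Cy3 and hybridised to 1 Agilent 1-colour array. All values are log2 processed signals minus the 75th percentile of the array, so they are relative to each array's other gene probes. A brighter probe is not read as more transcript than a dimmer one.

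Before a cell divides, the MCM helicase is loaded onto origins with the help of CDC6 and CDT1, cyclin E and the E2F factors open S phase, and PCNA clamps the polymerases to DNA. Cyclins A and B, the Polo and Aurora kinases and the spindle and kinetochore proteins then act in G2 and mitosis. Most cells of the adult aortic wall are quiescent, and these genes are widely used to show how many cells of a tissue are dividing; Pcna also serves DNA repair, which cells that do not divide need too.

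Replication and mitosis genes are known to be controlled through different promoter elements, so the promoters of 5 members are printed here, chosen after the values were seen. Top2a (a topoisomerase that untangles chromosomes), Ccnb2 (cyclin B2) and Mki67 (the proliferation marker Ki-67) were highest on 1 array, 6 months replicate 4. Mcm5, a subunit of the MCM helicase, was also highest on that array. It stood 0.86 above the median of the other arrays there, beside 1.87 for Ccnb2 and 1.71 for Mki67. Mcm6, another subunit, did not stand above that median (-0.09). Each line gives the 250 bases before the gene's start, from RefSeq on GRCm38.p6. Capitals mark, on either strand, the CHR element (TTTGAA), the CCAAT box (CCAAT) and 4 plain forms of the E2F site, and matches that overlap run together. The first E2F form, TTCCCGC, is found in 4.6% of all promoter windows of the table described after the sequences. The second E2F form, TTGGCGC, is found in 2.45% of them. The third form is TTCGCGC, found in 1.59% of the windows, and the last of the forms searched is TTGCCGC, found in 1.81% of the windows.
Top2a, chr11:99024190-99024439, minus strand: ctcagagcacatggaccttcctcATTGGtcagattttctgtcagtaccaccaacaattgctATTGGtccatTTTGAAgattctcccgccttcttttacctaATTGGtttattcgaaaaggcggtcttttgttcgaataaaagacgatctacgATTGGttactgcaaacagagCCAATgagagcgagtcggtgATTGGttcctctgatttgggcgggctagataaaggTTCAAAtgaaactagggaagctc
Ccnb2, chr9:70421555-70421804, minus strand: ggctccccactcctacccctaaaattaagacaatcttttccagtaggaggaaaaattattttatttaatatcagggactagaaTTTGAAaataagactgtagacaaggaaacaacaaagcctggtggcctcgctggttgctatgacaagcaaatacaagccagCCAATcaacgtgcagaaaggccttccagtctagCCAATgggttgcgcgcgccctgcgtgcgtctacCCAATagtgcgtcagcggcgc
Mki67, chr7:135716380-135716629, minus strand: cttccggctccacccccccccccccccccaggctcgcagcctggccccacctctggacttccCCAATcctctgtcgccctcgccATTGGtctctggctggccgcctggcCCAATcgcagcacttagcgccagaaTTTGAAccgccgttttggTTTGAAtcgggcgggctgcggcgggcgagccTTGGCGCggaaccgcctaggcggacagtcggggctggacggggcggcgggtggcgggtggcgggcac
Mcm5, chr8:75109259-75109508, plus strand: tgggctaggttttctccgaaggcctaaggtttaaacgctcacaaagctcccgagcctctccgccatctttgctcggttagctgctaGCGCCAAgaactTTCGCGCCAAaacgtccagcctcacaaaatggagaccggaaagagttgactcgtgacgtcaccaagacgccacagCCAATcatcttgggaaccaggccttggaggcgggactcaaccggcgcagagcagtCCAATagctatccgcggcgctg
Mcm6, chr1:128359706-128359955, minus strand: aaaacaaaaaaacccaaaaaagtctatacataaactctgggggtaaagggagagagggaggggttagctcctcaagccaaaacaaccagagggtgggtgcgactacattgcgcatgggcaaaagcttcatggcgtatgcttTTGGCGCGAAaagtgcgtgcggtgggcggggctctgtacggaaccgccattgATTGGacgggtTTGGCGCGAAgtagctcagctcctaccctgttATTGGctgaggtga
The printed stretches of Top2a and Ccnb2 held CHR and CCAAT letters and no E2F letters, those of Mcm5 and Mcm6 held E2F and CCAAT letters and no CHR letters, and that of Mki67 held all of them. RefSeq's table gave 37 promoter windows of 300 bases (250 before the start and 50 after it) for 34 of the 41 genes. TTTGAA was found in 12 of 17 mitosis windows (70.6%), in 3 of 20 replication windows (15%) and in 17.9% of all 32851 windows. E2F letters were found in 3 of 17 mitosis windows (17.6%), in 13 of 20 replication windows (65%) and in 9.57% of all windows. CCAAT stood in 15 of 17 mitosis windows (88.2%), in 13 of 20 replication windows (65%) and in 37.4% of all windows. Members outside the printed 5 did not all divide this way. In the 250 bases before the start, Birc5 held no CHR, CCAAT or E2F letters, and Plk1 and Cenpe held CCAAT letters only. On 6 months replicate 4 these stood 1.92, 1.39 and 1.38 above the median of the other arrays. Uhrf1 (1.80) and Rrm2 (1.49) held E2F and CCAAT letters and no CHR letters. These members were read over the 250 bases alone, whereas the shares of windows also count the 50 bases after the start. Several mitosis windows counted with TTTGAA did not hold it in the 250 bases. Letters nearer to or past the start are therefore not excluded for these members. Whether the letters go with height on that array was not tested. A match is a run of letters, not a shown binding site, and a gene with several starts has several windows.

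The arrays differed in ways that bear on these genes. The share of gene probes above background ranged over the arrays between 47.5% and 55.8%, with the highest share on 6 months replicate 4. It was 55.5% on 20 months replicate 5 and at most 50.2% on the remaining arrays. The 3 slides each held 2 arrays of either age, and the slide 3 arrays were scanned on a later day. All 20 months arrays lay in column 3 of a slide and all 6 months arrays in column 1 or 4, so column and age cannot be told apart. The markers of aortic smooth muscle (6 of 6), endothelium (6 of 6) and fibroblasts (5 of 5) were above background on every array. Some other lists varied widely in their array mean, each gene centred on its 12-array mean. Heart muscle markers reached 3.30 on 20 months replicate 1 and 2.06 on 6 months replicate 1, and fell to -1.31. Mesothelial markers lay between -2.02 and 0.75 at 20 months and between -0.28 and 2.36 at 6 months. The part of such tissue in the cell cycle values was not tested. As bulk RNA was measured, fewer cells of a type and less RNA per cell cannot be told apart, and p-values measure the spread between mice.

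At 20 against 6 months no member passed the test of a change: 0 of the 30 measured genes had an adjusted p under 0.05 in limma, where 53 of 16853 genes (0.314%) did, 44 of them higher (0.261%) and 9 lower (0.0534%) at 20 months. At an unadjusted p under 0.05 there were 3 members, Mcm7, Cdt1 and Gins1, beside 1348 of all 16853 genes (8.0%). For none of the 30 did the 6 values of one age lie apart from the 6 of the other, as they did for 0.801% of all genes. The change, 20 months minus 6 months, was negative in 26 members and positive in 4, with a median of -0.11 for the replication genes and -0.19 for the mitosis genes, against -0.02 and 56.1% negative over all genes. Without 6 months replicate 4 the split was 20 negative and 10 positive, the medians were -0.04 for the replication genes and -0.01 for the mitosis genes, and again 0 members passed, with 0 at an unadjusted p under 0.05, beside 30 called genes in all (0.178%) and 6.69% at that unadjusted p.

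**Figure D1:**
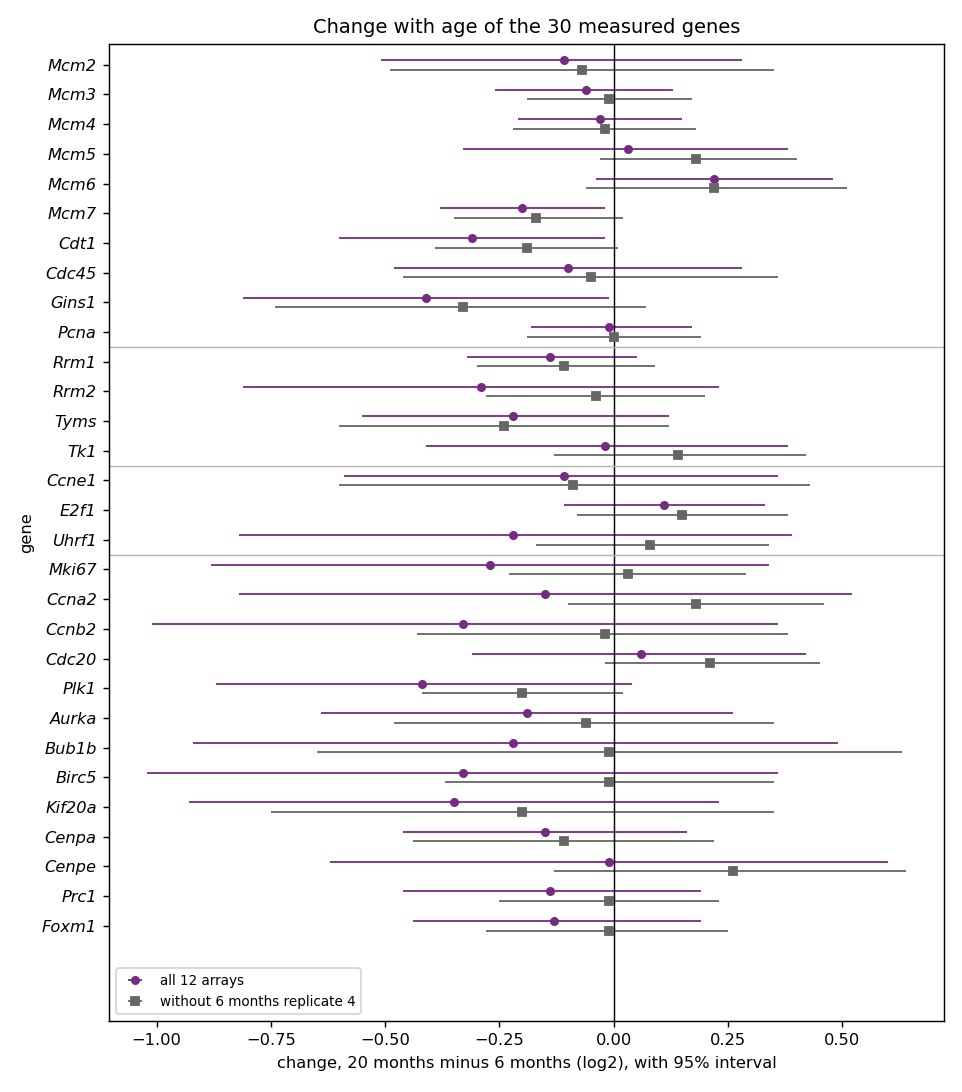
Change with age of each measured gene (x axis, log2, 20 months minus 6 months, with the 95% interval of the limma fit) for all 12 arrays (circles) and without 6 months replicate 4 (squares); grey lines part the role classes. The 13 mitosis genes at the bottom have a median of -0.19 over all arrays and of -0.01 when that array is left out.

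Among the licensing and fork genes, the MCM helicase subunits had changes of both signs. Mcm6 (probe at chr1:130228178-130228237 of mm9, the build of all probe positions here) had a lowest, median and highest value of 4.02, 4.24 and 4.58 at 20 months, against 3.64, 4.10 and 4.35 at 6 months. The ages overlapped, and the change of 0.22 ± 0.12 (SE) did not pass (limma adjusted p = 0.680; 95% interval -0.04 to 0.48). Mcm6 was also the member whose value on 6 months replicate 4 lay furthest below the median of the other 11 arrays (a difference of -0.09). Mcm7 (chr5:138605925-138605984) had 1.18, 1.29 and 1.42 at 20 months, against 1.24, 1.47 and 1.67 at 6 months. Its change was -0.20 ± 0.08 (limma adjusted p = 0.564), and -0.17 without 6 months replicate 4. Mcm2, Mcm3, Mcm4 and Mcm5 had changes of -0.11, -0.06, -0.03 and 0.03, with adjusted p from limma of at least 0.876; without 6 months replicate 4 they were -0.07, -0.01, -0.02 and 0.18. In Mcm2 the highest array was 6 months replicate 3, at -0.41.

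Cdt1, the factor that loads the MCM helicase (chr8:125096893-125096952), had a lowest, median and highest value of -1.17, -1.07 and -0.89 at 20 months, against -1.05, -0.77 and -0.13 at 6 months. The 6 months value of -0.13 belonged to replicate 4, and the next was -0.69. The change was -0.31 ± 0.14 (limma adjusted p = 0.589), and -0.19 without that array. Gins1, a subunit of the GINS complex of the moving helicase, had -2.38, -1.93 and -1.42 at 20 months, against -2.02, -1.40 and -1.08 at 6 months, a change of -0.41 ± 0.18 (limma adjusted p = 0.604) or -0.33 without replicate 4. Pcna, the sliding clamp (listed position chr2:132075022-132075054, which covers part of the probe), had 2.84, 2.91 and 3.22 at 20 months, against 2.82, 2.98 and 3.10 at 6 months. Its change of -0.01 had a 95% interval of -0.18 to 0.17, and the array 6 months replicate 4 lay 0.05 from the median of the others. Cdc45, which joins the helicase, had a change of -0.10 ± 0.18 (-0.05 without replicate 4), and Cdc6 had no probe past the filter.

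Nucleotide supply covers the 2 ribonucleotide reductase subunits and 2 enzymes of thymidine nucleotides. Rrm2, the subunit whose amount is tied to S phase, had a lowest, median and highest value of -1.35, -0.98 and -0.88 at 20 months, against -1.18, -0.94 and 0.49 at 6 months; the value of 0.49 was on replicate 4 and the next 6 months value was -0.76. The change was -0.29 ± 0.24 (limma adjusted p = 0.778), and -0.04 without that array. Rrm1, the subunit kept through the cycle, had 0.70, 0.90 and 0.96 at 20 months, against 0.74, 1.04 and 1.15 at 6 months, a change of -0.14 ± 0.08 (limma adjusted p = 0.721). Tyms, thymidylate synthase, had -3.02, -2.70 and -2.36 at 20 months, against -2.85, -2.56 and -2.08 at 6 months. Its change was -0.22 ± 0.15 with 6 months replicate 4 and -0.24 without it, and that array lay at -0.04 from the median of the other arrays. Tk1, thymidine kinase, had a change of -0.02 with all arrays and of 0.14 without replicate 4.

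In the S phase control group, Uhrf1, which keeps DNA methylation on new strands (chr17:56462770-56462829), had -1.26, -1.10 and -0.73 at 20 months, against -1.33, -1.07 and 0.65 at 6 months. The value of 0.65 was again on replicate 4, with the next 6 months value at -0.88. The change was -0.22 ± 0.28 (limma adjusted p = 0.868) and 0.08 without that array. E2f1, a transcription factor of S phase genes, had -0.94, -0.84 and -0.63 at 20 months, against -1.26, -0.88 and -0.70 at 6 months, a change of 0.11 ± 0.10. Ccne1, cyclin E1, had -1.86, -1.64 and -0.63 at 20 months, against -1.81, -1.35 and -0.94 at 6 months, a change of -0.11 ± 0.22. Ccne1 had an SD of 0.46 at 20 months, where its highest value was on replicate 1.

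**Figure D2:**
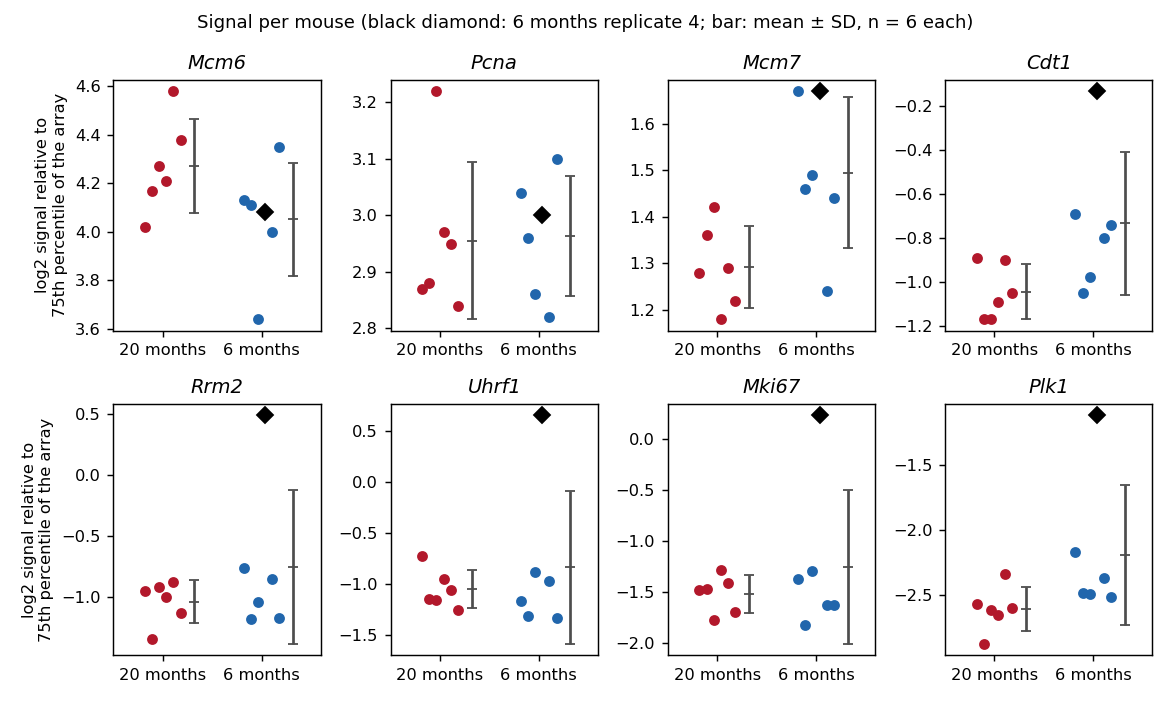
Signal of 8 members in each mouse (y axis, log2 relative to the 75th percentile of the array, own scale per gene) at 20 months and 6 months; the bar is the mean ± SD over 6 mice and the black diamond is 6 months replicate 4. That array lies inside the other values for Mcm6 and Pcna and far above them for Rrm2, Uhrf1, Mki67 and Plk1.

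The mitosis genes carried the larger negative median, and it rested on 1 array. Mki67 (chr7:142884764-142884823) had a lowest, median and highest value of -1.78, -1.48 and -1.29 at 20 months, against -1.83, -1.50 and 0.23 at 6 months. On replicate 4 it stood at 0.23, and the next 6 months value was -1.30. The change was -0.27 ± 0.28 (limma adjusted p = 0.828) with all arrays and 0.03 without that array, and a second Mki67 probe gave -0.19 with a value of 0.25 there. Plk1, the Polo kinase of mitotic entry, had -2.87, -2.60 and -2.34 at 20 months, against -2.51, -2.43 and -1.12 at 6 months. Its change of -0.42 ± 0.21 had the smallest p of the mitosis genes (limma adjusted p = 0.670), and was -0.20 without replicate 4. Kif20a, a kinesin of cytokinesis, had -4.24, -3.31 and -2.86 at 20 months, against -3.87, -3.11 and -2.29 at 6 months, a change of -0.35 ± 0.27, which was -0.20 without replicate 4 and -0.07 with normexp background correction. Its probe was above background on only 3 arrays at 20 months and 5 at 6 months.

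Cenpa, the histone of centromeres, was the mitosis gene not highest on 6 months replicate 4. It had -2.01, -1.74 and -1.44 at 20 months, against -1.99, -1.63 and -1.12 at 6 months, the highest on replicate 6, a change of -0.15 ± 0.14. Cdc20, the activator of the anaphase-promoting complex, was the mitosis gene with a positive change, 0.06 ± 0.17 (0.21 without replicate 4), with -1.03, -0.89 and -0.79 at 20 months, against -1.36, -1.07 and -0.18 at 6 months. The change was -0.15 for cyclin A2 (Ccna2), -0.33 for cyclin B2 (Ccnb2), -0.33 for the survivin gene Birc5, -0.19 for the kinase Aurka and -0.22 for the checkpoint kinase Bub1b. It was -0.01 for the kinetochore motor Cenpe, -0.14 for the spindle midzone protein Prc1 and -0.13 for the transcription factor Foxm1. Without 6 months replicate 4 the change was 0.18 for Ccna2, -0.02 for Ccnb2, -0.06 for Aurka and 0.26 for Cenpe, and -0.01 for each of Birc5, Bub1b, Prc1 and Foxm1. For these 8 genes the adjusted p from limma over all 12 arrays was at least 0.811 and the highest array was 6 months replicate 4. Both further Birc5 probes, below the filter, were above background on that array alone. The Bub1b probe was above background on only 3 arrays at 20 months and 4 at 6 months.

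Array by array, 6 months replicate 4 held the highest of the 12 values in 20 of the 30 measured members, against 9.16% of all genes. These were 12 of 13 mitosis genes and 8 of 17 replication genes. Over the median of the other 11 arrays, the mitosis genes stood 1.09 higher there at the median (2.13-fold, range 0.29 to 1.92), the replication genes 0.38 (1.30-fold, range -0.09 to 1.80), and all genes 0.00. The mitosis genes furthest above were Birc5 (1.92), Ccnb2 (1.87), Ccna2 (1.86) and Mki67 (1.71), and the replication genes furthest above were Uhrf1 (1.80) and Rrm2 (1.49). Replication genes near the other arrays were Tyms (-0.04), Pcna (0.05) and Mcm4 (0.08). The classes also differed in probe brightness. The mean over 12 arrays lay between -3.56 (Bub1b) and -0.93 (Cdc20) in the mitosis genes, and between -3.03 (Cdc45) and 4.16 (Mcm6) in the replication genes. It was 2.96 for Pcna and 1.89 for Mcm4, but -2.61 for Tyms. The part of brightness in the class difference was not tested.

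**Figure D3:**
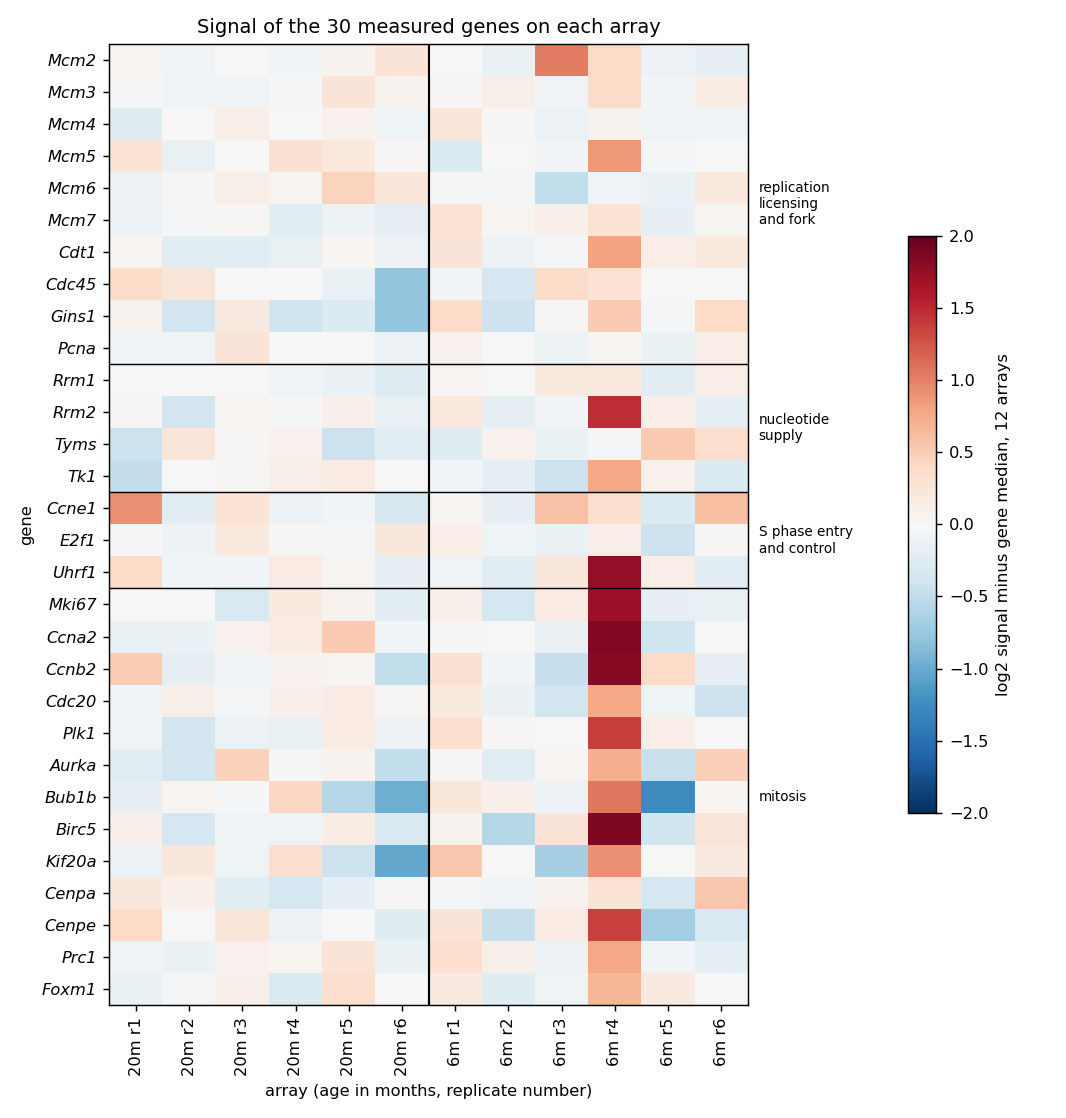
Log2 signal of each measured gene (rows, by role) on each array (columns, 20 months left of 6 months), with the gene's median over the 12 arrays subtracted; red is above and blue below that median, with colours ending at 2. The column 6m r4 (6 months replicate 4) is red in every mitosis row, palest for Cenpa, and 20m r6 is the bluest for Cdc45, Gins1 and Kif20a.

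Averaged over the genes of a class, each gene centred on its 12-array mean, the mitosis genes stood at -0.10 ± 0.13 at 20 months and 0.10 ± 0.52 at 6 months (SD, n = 6 each), and at -0.10 ± 0.17 over the 5 arrays at 6 months other than replicate 4. The replication genes stood at -0.05 ± 0.07 at 20 months and 0.05 ± 0.20 at 6 months, or -0.02 ± 0.07 without that array. On 6 months replicate 4 the means were 1.12 for mitosis and 0.45 for replication. The replication mean less the mitosis mean was 0.05 ± 0.08 at 20 months and -0.05 ± 0.33 at 6 months. It was -0.67 on replicate 4, and between -0.12 and 0.22 on the other arrays. At the other end, 20 months replicate 6 had the lowest mitosis mean, -0.36, and the lowest of the 12 values in 7 of the 30 members, against 9.34% of all genes.

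The spread between mice at 6 months also depended on that array. The median SD over the members was 0.19 at 20 months and 0.38 at 6 months, or 0.21 at 6 months without replicate 4, beside 0.18 at 20 months and 0.21 at 6 months over all genes. The SD was larger at 6 months in 27 of 30 members, and in 19 of 30 without that array, beside 65.9% and 66.0% of all genes. By slide, the median change of the mitosis genes was 0.08, -0.58 and -0.08 on slides 1, 2 and 3, and that of the replication genes -0.01, -0.25 and 0.02; 6 months replicates 4 and 5 lie on slide 2. The mean correlation between pairs of mitosis genes across the 12 arrays was 0.61, and 0.17 without replicate 4, against 0.22 and 0.04 for the replication genes and 0.02 for all genes. These correlations describe arrays that share a scaling, and genes are not independent replicates.

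Several transcripts of T cells and of their thymic precursors stood high on the same array. The T and NK cell list, 14 of its 20 genes measured, had an array mean between -0.41 and 0.18 at 20 months, against -0.57 to 0.06 at 6 months other than replicate 4, which had 1.49. On that array 17 of the 20 markers were above background and Ncr1, Klrk1 and Gzmb were not; elsewhere 12 to 15 were. Not all genes of the list stood high on 6 months replicate 4. Thy1 (4.26), Nkg7 (1.18), Cd2 (-0.67) and Cd247 (-3.31) lay within their 20 months ranges. Those were 3.84 to 4.70, 1.13 to 1.38, -1.40 to -0.64 and -4.44 to -3.24. Cd3d (1.01) and Lck (2.31) lay above theirs, which ended at -1.43 and -0.25. All 6 thymocyte markers were above background there, against 2 to 4 at 20 months and 2 or 3 at 6 months otherwise. Only Dntt and Cd1d1 of that list passed the filter, and Cd1d1, at 3.84 on that array, lay within its 20 months range of 3.52 to 4.45. Rag1, which starts antigen receptor gene rearrangement, stood at 0.93 on it, at -6.10 to -5.62 at 20 months, at -2.34 on 6 months replicate 5 and at -5.38 or lower on the remaining 6 months arrays. Dntt, the polymerase that adds bases at receptor joints, stood at 2.69 on it, at -2.70 to -1.33 at 20 months, and at -0.25 on 6 months replicate 5. The thymocyte mean, over the 2 measured genes, was 0.45 on 6 months replicate 5, beside -0.64 to 0.36 at 20 months. The mitosis mean on 6 months replicate 5 was -0.29, the lowest mitosis mean at 6 months. On replicate 4 the thymocyte and mitosis means were 2.11 and 1.12. The B cell list stood at 0.25 on replicate 4, within its range of -0.29 to 0.50 at 20 months. The part of such cells in the values of the cell cycle genes was not tested.

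**Figure D4:**
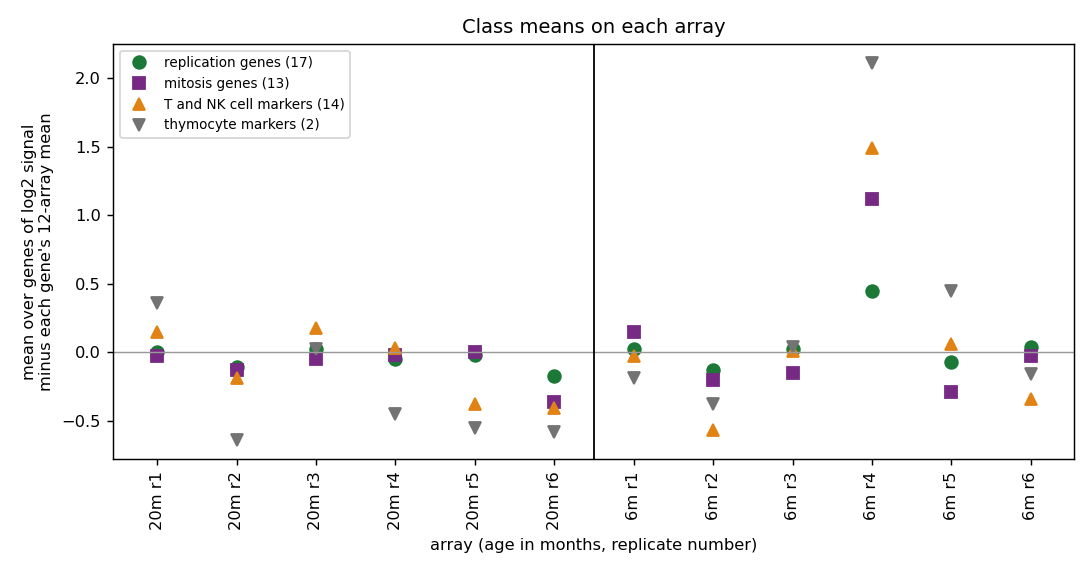
Mean on each array (x axis, 20 months left of 6 months) of the replication genes, the mitosis genes, the T and NK cell markers and the thymocyte markers, as log2 signal minus each gene's 12-array mean (y axis). On 6 months replicate 4 the means are 0.45, 1.12, 1.49 and 2.11.

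The 11 members with no probe past the filter were 7 mitosis and 4 replication genes: Top2a, Cdk1, Ccnb1, Aurkb, Bub1, Kif11 and Nusap1, and Cdc6, Ccne2, E2f8 and Chek1. They had no test of age in the main fit. They were tested in the alternative with no filter on dim probes, where 0 members were called. Ccne2, Aurkb and Bub1 were above background on no array, and the 3 probes of Cdk1, the main mitotic kinase, on 1 array at 20 months and none at 6 months. A Cdc6 probe was above background on 1 array, at 20 months. The array 6 months replicate 4 was above background for 6 of the 11, and it was the 1 array above background for Top2a (-1.68 there), E2f8 (-2.86) and Kif11 (-3.58). That array also had the highest share of all gene probes above background, 55.8%. The like share over all genes below the filter was not computed, so these counts are descriptions only. Ccnb1 and Chek1 were above background on 1 array at 20 months and 3 at 6 months each, and Nusap1 on 3 at 20 months and 2 at 6 months.

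Other genes of the same pathways, from lists drawn up with earlier results known, gave 0 calls in limma, with 0, 1, 3 and 2 genes at an unadjusted p under 0.05 in the replication, mitosis, G1 and inhibitor lists. Of 45 further replication genes 40 were measured, with a median change of -0.03, and 12.5% of them were highest on 6 months replicate 4. The 3 with the smallest p, the primase subunit Prim1, the origin subunit Orc6 and the histone mRNA binder Slbp, each had a change of -0.16 (limma adjusted p = 0.680, 0.684 and 0.702). Of 73 further mitosis genes 33 were measured, with a median of -0.10, or -0.01 without replicate 4, and 18 of them (54.5%) were highest on it. Kif22, Spc25 and Mybl2 had changes of -0.67, -0.38 and -0.27, with adjusted p from limma of 0.523, 0.659 and 0.664. Without 6 months replicate 4 these changes were -0.40, -0.19 and -0.18, and with normexp background correction they were -0.19, -0.17 and -0.11.

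Among the genes that hold cells in or let them leave G1, 25 of 27 G1 cyclins, kinases and E2F-RB genes and 16 of 16 CDK inhibitors and p53 targets were measured, with medians of 0.02 and -0.02. Cdkn2a, which encodes a CDK inhibitor and the p53 activator ARF, had a lowest, median and highest value of -2.99, -2.71 and -2.34 at 20 months, against -3.87, -3.45 and -2.74 at 6 months. The change was 0.71 ± 0.16, the ages overlapped, and it did not pass (limma adjusted p = 0.122; 0.0267 to 0.561 over the alternatives, passing only without 6 months replicate 3). Over the alternatives the change ranged between 0.19, with normexp background correction, and 0.84. Ccnd1, cyclin D1, had 2.26, 2.39 and 2.57 at 20 months, against 1.49, 1.91 and 2.37 at 6 months, a change of 0.46 ± 0.13 (limma adjusted p = 0.243). Lin9, a subunit of the MuvB complex, which is known to act through CHR elements, had a change of -0.49 ± 0.13 (limma adjusted p = 0.232). The change was -0.30 ± 0.09 for Cdkn1b, a CDK inhibitor, and 0.37 ± 0.14 for Wee1, which holds CDK1 inactive. It was 0.16 ± 0.12 for the inhibitor Cdkn1a, 0.14 ± 0.11 for the p53 target Zmat3 and -0.08 ± 0.13 for the inhibitor Cdkn2c, in all 5 with adjusted p from limma of at least 0.292.

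Over the 12 arrays the genes outside the set most like the mean of the mitosis genes, by Pearson correlation, were Stmn1 (0.946), Cklf (0.929), Cdca7 (0.924), H2ac11 (0.910), Arl5c (0.899), H2ac15 (0.899), Kif22 (0.898), Endou (0.898), Cdca8 (0.896) and H2ac12 (0.892). The mitosis mean was far highest on 6 months replicate 4, so a choice by correlation with it favours genes that are high there. The chosen genes stood between 0.97 and 2.48 above the median of the others on that array, which follows from the choice. Kif22 and Cdca8 are on the list of further mitosis genes. H2ac11, H2ac15 and H2ac12 are near-identical histone H2A copies whose probes may share signal. Over the 11 arrays without it the closest were Zwilch (0.965), Def6 (0.898), Tcea2 (0.874), Accs (0.863), Phkg2 (0.854), Kcnq1 (0.852), Pole (0.841), Bbs10 (0.839) and Lmtk2 (0.836). No gene is in both groups, and Pole, a polymerase subunit, is on the list of further replication genes. Both groups are the highest correlations picked among 16853 measured genes over few arrays. High values can arise by chance in such a pick, and no correlation was tested.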

How the data were processed

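RNA of 12 mice was measured on 12 arrays, 1 per mouse, of design 028005 (mm9 probe positions). Per the file headers, the authors extracted the scanner values with Agilent Feature Extraction 10.7.1.1; the deposited intensity used is its background-subtracted processed signal. A deposited table of log2 values, centred on each probe's median by steps not given in the sources used here, served as an alternative.

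The intensities were taken to log2, outlier-flagged spots were left out, spots of a probe were averaged and the 75th percentile over gene probes was subtracted. Of 55681 gene probes 55630 were kept. Names came from RefSeq by accession (26413 probes), by symbol or synonym (4594) or from the array (4779), and 19895 have none. A probe entered when the scanner's flag put it above background on 6 or more arrays, and the probe with the highest mean stood for its gene. The ages were compared with limma 3.58.1 (R 4.3.3, data.table version 1.17.8), age as the only term, two-sided, Benjamini-Hochberg adjusted over 16853 genes at 0.05, with moderated standard errors. The procedure was tested on simulated data. Precision is limited by the number of arrays, 6 at each age.

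The members, lists and rules were chosen with earlier results of these data known. The named genes are a fixed set (Mki67, Top2a, Cdk1, Plk1, Pcna, Mcm6, Mcm7, Cdt1), the 3 members of each role class with the smallest p and the 1 with the highest mean signal, the 3 genes with the smallest p of each further list, Ccnd1 and 4 CDK inhibitor genes, and the 10 genes most like the mitosis mean with and without 6 months replicate 4, leaving out model numbers, accessions and clones. Of these genes, 1 is not reported here. Other members are given by their change. The alternatives were scaling by the median or by quantiles, normexp (offset 50), the deposited value table, a filter on 12 arrays or none, a slide block (fixed or random), single slides, a block for the replicate number, robust eBayes with a trend, array weights, averaged probes of a gene, tests of every probe, each array left out, and 3 arrays with markers of other tissues left out. Leaving out 6 months replicates 4 and 5 together was chosen after seeing the data.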

Additional observations from a re-analysis of the deposited data

Results flagged for a closer look

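In 16 of 94 groups of 6 arrays examined, 1 end value stood apart from the other 5 by more than Dixon's 95% limit for the gap as a share of the range; chance flags about 1 in 20 groups. That rate holds for 1 group. The 94 groups come from the same 12 arrays, many of their genes vary together, and the class means average some of them. They are therefore not independent, and 16 of 94 is not a test against that rate. The array was 6 months replicate 4 in 12 of the 16. There it was the highest of the 6 months values for Mcm5 (-0.59, next -1.45), Rrm2 (0.49, next -0.76), Uhrf1 (0.65, next -0.88), Mki67 (0.23, next -1.30), Ccna2 (-0.98, next -2.80), Ccnb2 (-0.37, next -1.80), Plk1 (-1.12, next -2.17) and Birc5 (0.27, next -1.34). The same held for Kif22 (-1.69, next -3.02) and Spc25 (-0.44, next -1.33), for the mean of the mitosis genes (1.12, next 0.15) and for the mean of the replication genes (0.45, next 0.04). At 20 months the end values apart were the highest of Pcna (3.22 on replicate 3, next 2.97) and of Cdkn2c (2.26 on replicate 3, next 1.96), the lowest of Tk1 (-3.05 on replicate 1, next -2.59) and the lowest mitosis mean (-0.36 on replicate 6, next -0.13).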

How the results depend on the processing

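No member passed under any of the 27 alternatives with a fit over all genes (lowest adjusted p from limma 0.253), and 14 of the 30 measured members kept the sign of their change under all of them; 47 of 806 member values had the opposite sign. The genes called among all tested, 53, became 32 with median scaling, 24 with no filter on dim probes, 122 with array weights, 30 without 3 arrays high in heart muscle or lymphoid markers (6 months replicates 1 and 4, 20 months replicate 1), 15 without 6 months replicates 4 and 5 together, and 21 to 58 with 1 array left out; it was 30 or lower without any one of 6 months replicates 3, 4 and 5 and 20 months replicates 2 to 6. With 6 months replicate 4 left out the mitosis median was -0.01, and it was 0.05 without the 3 arrays; slide 2 alone gave -0.58. Normexp background correction, on all 12 arrays, gave medians of -0.08 for the mitosis genes and -0.06 for the replication genes, and changes of -0.19 for Cdt1, -0.22 for Gins1, -0.06 for Tyms, -0.14 for Plk1, -0.26 for Lin9, 0.21 for Wee1 and 0.19 for Cdkn2a. Replicate numbers are not stated to pair the mice: the deviations of same-numbered arrays correlated at -0.36 to 0.32, 2 of 12 arrays correlated best with their own number, and a replicate block left 6 genes called. Signs turned for Pcna with quantile normalization (0.01), median scaling (0.03), the value table (0.01) and without the 3 arrays (0.04), for Tk1 at 0.02, 0.26 and 0.21 and for Cenpe at 0.03, 0.30 and 0.14 (median scaling, without the 3 arrays, without replicates 4 and 5). Without the 3 arrays they also turned for Mcm4 (0.08), Rrm2 (0.01), Uhrf1 (0.01), Mki67 (0.07), Ccna2 (0.26), Bub1b (0.09), Prc1 (0.09) and Foxm1 (0.05), and without 6 months replicates 4 and 5 for Uhrf1 (0.12), Mki67 (0.01), Ccna2 (0.10), Ccnb2 (0.07) and Foxm1 (0.03). With 1 array left out the changes ranged from -0.06 to 0.01 for Mcm4, -0.04 to 0.18 for Mcm5, -0.06 to 0.02 for Pcna, -0.16 to 0.26 for Cenpe, -0.18 to 0.06 for Mcm2, -0.02 to 0.21 for Cdc20, -0.10 to 0.14 for Tk1, -0.31 to 0.08 for Uhrf1, -0.38 to 0.03 for Mki67, -0.27 to 0.18 for Ccna2 and -0.18 to 0.05 for Cdc45. Cdkn2a passed without 6 months replicate 3 (0.84, adjusted p = 0.0267); under the alternatives its change ranged between 0.19 and 0.84 and its adjusted p reached 0.561. The causes were not tested. The 11 members below the filter were tested only in the alternative with no filter on dim probes, where 0 members were called. None of their probes was above background on 6 or more arrays, so their changes are not read here.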
